A study of Mus musculus with 27 samples.

Results

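R33 is a small molecule that was identified as a chaperone of the retromer, and the data described here come from its injection into one hemisphere of the cortex, read against the other hemisphere of the same brain. The comparison holds the R33 libraries that can be paired by the mouse letter of their labels, 8 of the 27 libraries used from the series and 4 of its 14 mice. These mice are labelled K, N, O and AD, where AD is the label of a mouse and not the disease. A further R33 mouse, AE, has only its injected library here and entered no paired test. All mice were female 5xFAD animals, which carry mutant human transgenes, APP among them, under a neuronal Thy1 promoter and develop amyloid plaques, and no mouse without the transgenes was in the comparison. At 16 weeks of age they received a stereotaxic microinjection into the lateral parietal association cortex of R33 at 10 mM, dissolved in DMSO and sulfobutylether beta-cyclodextrin, and a small block of cortex around the injection site and its counterpart on the other side were taken 24 h later. The vehicle mice (4 pairs) received the solvent alone and the R55 mice (5 pairs) the related thiophene thiourea R55 at the same 10 mM. Needle, solvent and compound cannot be told apart within the R33 mice alone, and the vehicle mice share the needle and the solvent.

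The retromer is a complex of VPS35, VPS26 and VPS29 on endosomes that returns membrane proteins, such as SORL1 and sorted receptors, to the Golgi or the cell surface. It matters in Alzheimer's disease because the amyloid precursor protein meets its cleaving enzymes in endosomes. A needle wound in the cortex is known to call up reactive astrocytes, microglia and blood-borne cells around the track within a day, and microglia near plaques switch to a phagocytic, lipid-handling state.

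Values are FPKM, fragments scaled to the length of the gene and the depth of the library, and differences are injected minus contralateral on the log2(FPKM + 1) scale, which understates the change of genes with low values. The 8 libraries held 20187311 to 35571024 fragments on genes. Of the 26264 gene symbols in the table, the 12976 whose FPKM averaged 1 or more across the 27 libraries were tested, paired by mouse, with limma and Benjamini-Hochberg adjustment, and a gene is called at an adjusted p under 0.05. For a few genes tested alone, 4 pairs cannot give a two-sided exact sign-flip p below 0.125.

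The markers of the expected cells were present in every block, but the blocks did not hold the same tissue. Summed FPKM of 4 neuronal markers (Rbfox3, Snap25, Slc17a7 and Gad1) lay between 2090.0 and 2763 contralaterally and between 1736 and 2670.0 in the injected hemisphere. Summed markers of the choroid plexus (Ttr, Kl, Folr1 and Clic6), the epithelium that makes cerebrospinal fluid in the ventricles, were 716, 12.1, 412 and 8.77 FPKM contralaterally and 1074.5, 1661, 6.94 and 29.98 FPKM in the injected hemisphere of K, N, O and AD. K thus held choroid plexus RNA on both sides, N only at a high level on the injected side and O on the contralateral side, while AD had less on either side than the other mice at their higher side. In N the carrier of thyroid hormone Ttr went from 10.2 to 1616 FPKM, and in O from 401 to 2.96 FPKM.

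Striatal markers (Drd1, Drd2 and Adora2a) summed to 7.65, 6.44, 6.41 and 3.43 FPKM contralaterally and 3.97, 47.9, 4.96 and 3.85 FPKM in the injected hemispheres, with the injected block of N far above its other side. Hippocampal markers (Prox1, C1ql2, Fibcd1 and Spink8) summed to 15.7, 34.2, 12.1 and 9.75 FPKM contralaterally and 41.8, 5.76, 66.5 and 4.68 FPKM on the injected side, higher there in K and O and lower in N and AD. Oligodendrocyte markers (Mog, Mbp and Mag) summed to 623, 559, 776 and 634 FPKM and 639, 872, 1179 and 680.2 FPKM, higher on the injected side most in N and O. The sum is mostly Mbp, and in AD Mog and Mag were lower on the injected side (-0.21 and -0.79). The labels name only brain and hemisphere, and the study describes a cortical block. The part of unequal tissue in each gene's difference was not tested, and in a block of tissue fewer cells of a type and less RNA per cell cannot be told apart. The other 19 libraries spanned a like range, 4.08 to 1136 FPKM for choroid plexus and 4.21 to 91.5 FPKM for hippocampal markers.

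**Figure D1:**
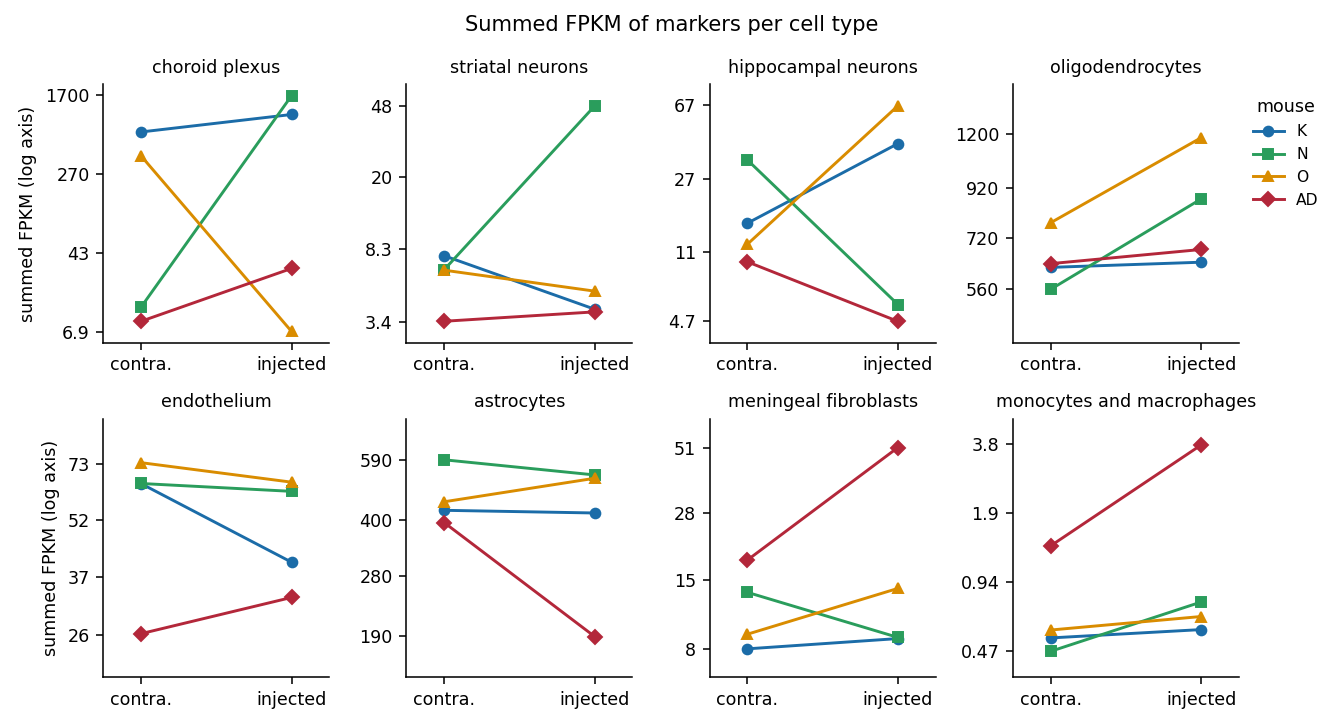
Summed FPKM of 3 or 4 markers for each of 8 cell types (log axis) in the contralateral and injected block of the R33 mice, 1 line per mouse. Choroid plexus markers run in opposite directions in N and O, and meningeal fibroblast and monocyte markers are highest in the injected block of AD.

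Among the R33 libraries, the injected library of AD stood apart in another way. Its FPKM summed to 425001, against 332524 to 366915 in the other 7 R33 libraries, and its hemisphere difference followed gene length with a Spearman correlation of -0.60 across genes, against -0.05 to 0.14 in K, N and O. Outside the R33 mice this correlation reached -0.37 in the vehicle mouse AH and 0.48 and 0.71 in the R55 mice AB and Q. The FPKM of the contralateral library of Q summed to 403184. The median difference in AD was 0.42 in the shortest of 10 equal groups of genes and -0.21 in the longest. Short genes thus tended to be higher in the injected hemisphere of AD, and values without AD or with the length trend removed are given below where they move a result. Differences over 1 on the log2 scale in either direction were seen in 23 genes upwards and 13 downwards in K, 69 and 61 in N, 112 and 92 in O, and 161 and 42 in AD.

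**Figure D2:**
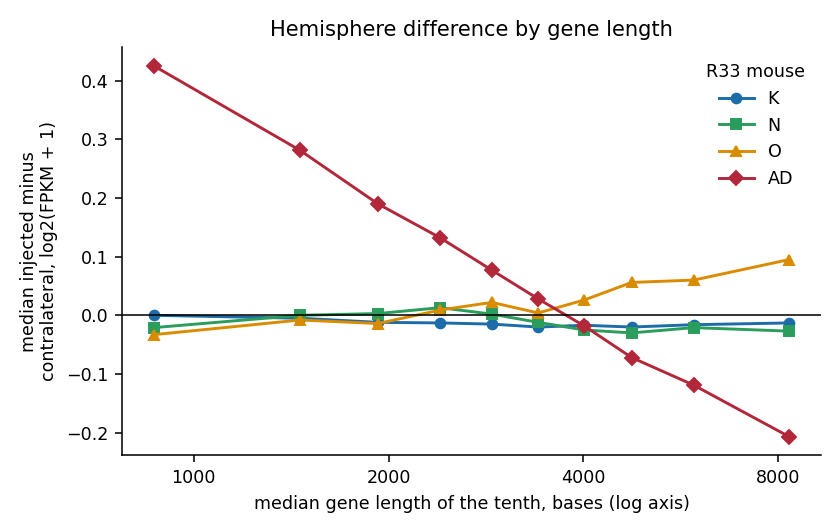
Median difference between hemispheres in 10 equal groups of tested genes ordered by length (x axis, bases, log scale), 1 line per R33 mouse. AD falls from 0.42 in the shortest genes to -0.21 in the longest, and the other mice stay within 0.10 of 0.

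No gene was called between the injected and the contralateral hemisphere of the R33 mice (0% of 12976 tested genes, smallest adjusted p = 0.953, limma). At an unadjusted p under 0.05 there were 546 genes, 317 higher (2.44%) and 229 lower (1.76%) in the injected hemisphere. Higher in all 4 pairs were 954 genes (7.35%), and lower in all 4 pairs 739 (5.7%). These shares, and the 55.2% of tested genes with a mean difference above 0, stand beside the list counts below. The median SE of a gene's difference was 0.0954. Across genes, the differences of 2 mice correlated with Pearson's r between -0.16 (N and O) and 0.29 (K and O), over 12976 genes that are not independent replicates. The adjusted p of each gene named below was at least 0.953 for this comparison, and the genes are therefore described by their values.

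The genes with the smallest p among those of one sign in all 4 pairs were chosen for that pattern, so their values are descriptions. Among the 12 that were higher in the injected hemisphere was A2m, alpha-2-macroglobulin, a protease trap secreted by reactive astrocytes, which lies on chromosome 6, 121612335 to 121656186 (GRCm39). It measured 1.20, 0.921, 1.46 and 0.452 FPKM in the contralateral hemispheres of K, N, O and AD and 2.60, 4.50, 3.92 and 1.45 FPKM in the injected ones. Each injected block lay above its partner (differences 0.71, 1.52, 0.999 and 0.75), and the mean difference was 0.99 (SE 0.1498). Cd14, the coreceptor for bacterial lipopolysaccharide on microglia and macrophages, measured 2.82, 3.91, 5.44 and 5.24 FPKM contralaterally and 3.76, 5.34, 7.07 and 7.83 FPKM in the injected hemisphere. The 4 differences of Cd14 were alike (0.32, 0.37, 0.33 and 0.50), while the groups of FPKM overlapped. Nqo1, a quinone reductase of the NRF2 response, measured 3.23, 2.55, 3.14 and 3.10 FPKM contralaterally and 3.73, 5.18, 5.04 and 5.21 FPKM in the injected hemisphere, with a mean difference of 0.53 (SE 0.115), and its lowest injected value was above the highest contralateral one.

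Rhog, a small GTPase of engulfment and cell migration, measured 24.1, 19.7, 34.1 and 30.01 FPKM contralaterally and 26.7, 27.8, 45.4 and 45.9 FPKM in the injected hemisphere and differed by 0.41 (SE 0.0929). Its highest values were the injected ones of O and AD. Ppp1r14a, an inhibitor of myosin phosphatase that is abundant in oligodendrocytes, differed by 0.46 (SE 0.0946), with differences of 0.19, 0.62, 0.60 and 0.45, and the summed oligodendrocyte markers were likewise higher most in N and O. Lrrc10b had the largest mean difference, 1.52 (SE 0.276), from 4.23, 3.94, 2.77 and 0.754 FPKM contralaterally and 11.8, 25.7, 11.9 and 1.63 FPKM in the injected hemisphere. The injected block of N, which had the most striatal RNA, also had the highest value of Lrrc10b. In K, O and AD the log2 ratios of the summed striatal markers were -0.945, -0.37 and 0.17, beside Lrrc10b differences of 1.29, 1.77 and 0.59. The part of striatal tissue in Lrrc10b was not tested. Endog, the mitochondrial endonuclease G, differed by 0.31 (SE 0.0700), Sertad4 by 0.41 (SE 0.0909), Rom1 by 0.45 (SE 0.0901), Cox6b2, a subunit of cytochrome c oxidase, by 0.60 (SE 0.123) and Sebox by 0.66 (SE 0.146). Scarna2 had the smallest p, but it rests on at most 4 fragments per library and on none in 2 contralateral libraries. Rhog, Endog and Sertad4 overlap another annotated gene on the opposite strand, and whether strand was used in counting is not given in the sources used here.

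The 12 genes that were lower in the injected hemisphere of all 4 mice included a calcium pump, an ion channel subunit and neuropeptide-related genes. Atp2b4, the plasma membrane calcium pump PMCA4, which lies on chromosome 1, 133627195 to 133728923 (GRCm39), measured 28.5, 40.8, 35.7 and 31.7 FPKM in the contralateral hemispheres of K, N, O and AD and 24.5, 23.1, 16.5 and 11.3 FPKM in the injected ones. Every injected value was below every contralateral one, with differences of -0.21, -0.79, -1.07 and -1.40 and a mean of -0.87 (SE 0.185). Kcnf1, an electrically silent potassium channel subunit, measured 30.02, 29.8, 26.4 and 31.4 FPKM contralaterally and 24.3, 21.1, 14.9 and 20.6 FPKM in the injected hemisphere, again without overlap, and differed by -0.54 (SE 0.0951). Pcsk1, the convertase that matures neuropeptides, measured 11.5, 9.12, 7.95 and 8.75 FPKM contralaterally and 7.84, 7.76, 4.96 and 4.43 FPKM in the injected hemisphere and differed by -0.54 (SE 0.111). The highest injected value of Pcsk1 was just below its lowest contralateral one.

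Serpini1, neuroserpin, an axonal inhibitor of tissue plasminogen activator, was the most abundant of these genes at 119, 124, 94.5 and 111 FPKM contralaterally and 95.0, 102, 75.7 and 76.5 FPKM in the injected hemisphere, and its mean difference was -0.36 (SE 0.0824). Nxph3, a neurexin ligand, differed by -0.42 (SE 0.0767), B3galt2, which overlaps Cdc73 on the opposite strand, by -0.37 (SE 0.0749), Cort, the interneuron peptide cortistatin, by -0.44 (SE 0.0934), Cntnap3, a contactin-associated protein, by -0.41 (SE 0.0918) and Nwd2 by -0.52 (SE 0.1202). All 24 genes kept their sign without AD, with the length trend removed and with median-of-ratios size factors. In the vehicle mice the mean difference had the same sign for 9 of the 12 higher and 11 of the 12 lower genes, and in the R55 mice for 4 and 5.

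**Figure D3:**
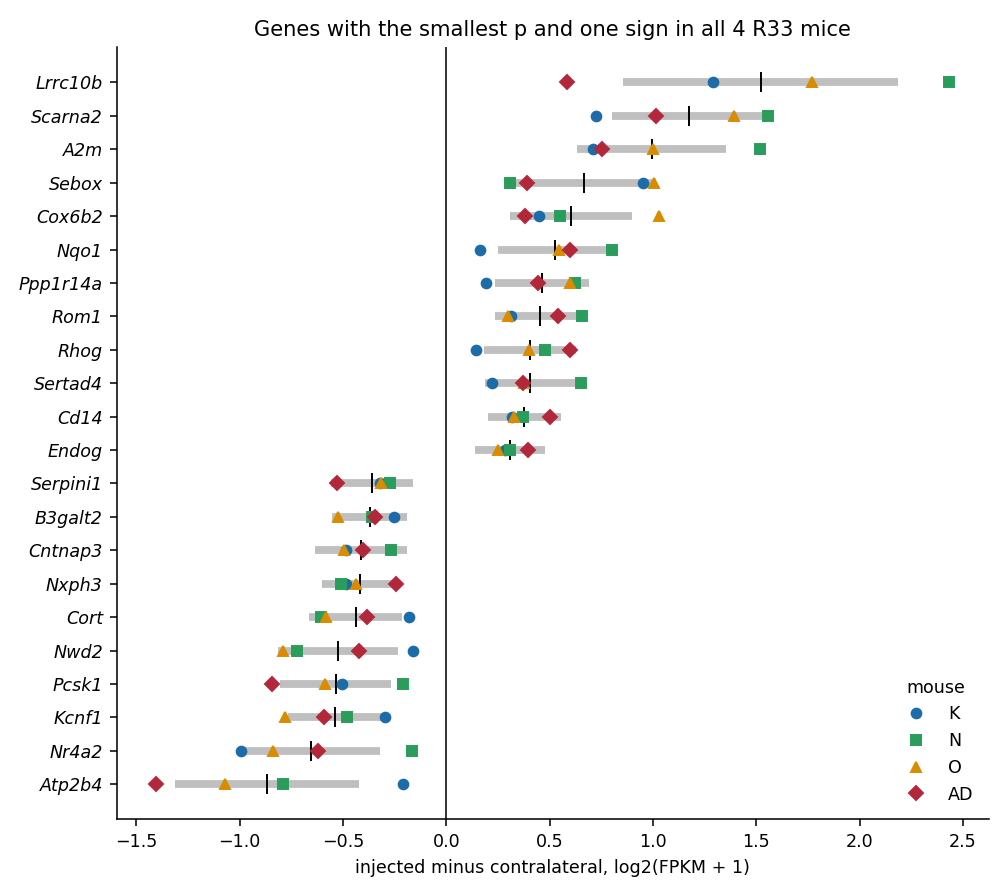
Difference between hemispheres of each R33 mouse (symbols) for the genes with the smallest p and one sign in all pairs, with the mean (tick) and its 95% interval from limma (grey bar), on the log2(FPKM + 1) scale. Lrrc10b spans 0.59 to 2.43 and Atp2b4 -1.40 to -0.21, while the 4 mice of Cd14 lie between 0.32 and 0.50.

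The target of R33 is a protein complex, and its transcripts were close to level between the hemispheres. Vps35, the core subunit, which lies on chromosome 8, 85986024 to 86026431 (GRCm39), measured 63.3, 67.8, 56.6 and 52.7 FPKM in the contralateral hemispheres of K, N, O and AD and 59.3, 60.9, 57.2 and 57.5 FPKM in the injected ones. It was lower on the injected side in K and N and higher in O and AD, with a mean difference of -0.03 (SE 0.0804), a 95% interval of -0.22 to 0.17 and an adjusted p of 0.981. The other core subunits differed by 0.00 (SE 0.0882) for Vps26a, -0.04 (SE 0.0719) for Vps26b and 0.02 (SE 0.0933) for Vps29. Of the 30 retromer and endosomal sorting genes, all tested, 20 were above 0 and 10 below, with a median of 0.035 beside 0.013 for all tested genes, and it ran from 0.021 (without O) to 0.063 (without K) with a mouse left out. None had an unadjusted p under 0.05. Higher in all 4 pairs were Snx3, a sorting nexin that recruits retromer, by 0.14 (SE 0.0899), and Washc1, a subunit of the actin-nucleating WASH complex, by 0.07 (SE 0.0660).

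Sort1, Sorl1 and App differed most in AD. Sort1, sortilin, measured 111, 109.6, 106 and 82.8 FPKM contralaterally and 115, 116, 100.4 and 42.2 FPKM in the injected hemisphere, and AD had the difference farthest from 0 (-0.96). Sorl1, the receptor that keeps APP out of the secretase path, differed by -0.68 in AD and by 0.00 to 0.31 in the other mice. Sorcs3, of the same receptor family, differed by 0.10, -0.18, -0.13 and -0.58. App itself measured 731, 660.3, 715 and 605 FPKM contralaterally and 719.5, 750.5, 718 and 372 FPKM in the injected hemisphere. The AD difference of App was -0.70, the others lay between -0.02 and 0.18, and the mean was -0.13 (SE 0.165), which turns to 0.06 without AD. Fragments of the human APP transgene that align to mouse App cannot be told apart from those of the mouse gene. Of the 15 App and secretase genes, 13 were tested, 5 were above and 8 below 0, and none had one sign in all pairs. Without AD 12 of 13 were above 0, and the median went from -0.03 to 0.05. The AD median of the list was -0.29 as deposited and -0.33 with the trend removed.

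Reactive astrocyte genes were mostly higher on the injected side, and most in AD. Of 32 genes 27 were tested, 26 were above 0, 8 were higher in all 4 pairs, and 9 had an unadjusted p under 0.05, with a median of 0.31, beside 55.2% of all tested genes above 0. By mouse the medians were -0.002, 0.08, 0.29 and 1.05 in K, N, O and AD, and without AD the median was 0.11 with 16 of 27 above 0, beside 49.8% of all tested genes without AD and 49.8% with the length trend removed. The same list had a median of 0.33 over the mean differences of the vehicle mice, whose own medians ranged from 0.17 to 0.27, and the R55 mice ranged from -0.32 to 0.71. Gfap, the intermediate filament of astrocytes, measured 133, 222, 227 and 176 FPKM in the contralateral hemispheres of K, N, O and AD and 188, 249, 425 and 626 FPKM in the injected ones, with differences of 0.49, 0.16, 0.90 and 1.82. Vim, vimentin, followed with 0.18, 0.18, 0.66 and 1.88. In both genes all pairs were higher on the injected side, AD most.

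Timp1, the tissue inhibitor of metalloproteinases, measured 0.410, 0.600, 1.13 and 0.778 FPKM contralaterally and 1.14, 1.33, 3.84 and 29.5 FPKM in the injected hemisphere, and Lcn2, lipocalin 2, measured 1.68, 4.32, 5.10 and 0.854 FPKM contralaterally and 1.23, 6.34, 5.69 and 26.5 FPKM in the injected hemisphere. The injected block of AD was far above all others in both, and Lcn2 was lower on the injected side of K (differences -0.26, 0.47, 0.13 and 3.89). Cebpd, a transcription factor of the acute phase, measured 1.84, 2.66, 2.99 and 2.63 FPKM contralaterally and 3.73, 3.04, 7.21 and 9.75 FPKM in the injected hemisphere and differed by 0.87 (SE 0.216). Serpina3n, a serine protease inhibitor, differed by 0.84, -0.11, 1.21 and 1.60, and Tnfrsf12a, the TWEAK receptor, by 0.12, 0.49, 0.62 and 1.05. Stat3, the signal transducer behind much of astrocyte reactivity, was higher in all 4 pairs with a mean difference of 0.25 (SE 0.0849).

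Among the R33 mice, genes of resting astrocytes had a median far from 0 in AD alone. Of the 18 homeostatic astrocyte genes 10 were above and 8 below 0, and the medians by mouse were 0.02, -0.03, 0.18 and -0.52. Without AD 14 of 18 were above 0, and the median ran from -0.13 (without O) to 0.08 (without AD). Slc1a2, the main glutamate transporter GLT-1, measured 314, 461, 331 and 259 FPKM in the contralateral hemispheres of K, N, O and AD and 302, 414, 338 and 75.4 FPKM in the injected ones. In AD the injected value was far below the other side, whereas K, N and O differed by -0.06, -0.15 and 0.03. Slc1a3, another glial glutamate transporter, differed by -1.33 in AD, and Gja1, connexin 43, by -0.76. Aldh1l1, a folate enzyme that marks astrocytes, was higher in all 4 pairs with a mean difference of 0.24 (SE 0.0844). It was higher on the injected side of all 4 vehicle mice too, with a mean of 0.24. Medians of the list ranged from -0.29 to 0.43 in the vehicle mice and from -0.51 to 0.37 in the R55 mice.

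Disease-associated microglia genes, those that microglia switch on near plaques, were mostly above 0. Of the 32 disease-associated microglia genes 30 were tested, 27 were above 0, 12 were higher in all 4 pairs and none was lower in all 4. Over all tested genes 7.35% were higher in all 4 pairs. The list median was 0.21, with medians by mouse of 0.09, 0.12, 0.25 and 0.43. Without AD 27 of 30 were above 0 with a median of 0.15, and the AD median was 0.17 with the length trend removed, these genes being short (median 1475.5 bases). The vehicle median was 0.03, with single mice from -0.12 to 0.31, so the highest vehicle mouse lay above K, N and O. Spp1, osteopontin, measured 3.98, 3.65, 8.45 and 11.6 FPKM in the contralateral hemispheres of K, N, O and AD and 4.66, 6.21, 14.3 and 61.2 FPKM in the injected ones, and Ifi30, a lysosomal thiol reductase, 4.25, 3.70, 5.04 and 5.42 FPKM contralaterally and 5.05, 4.31, 9.64 and 19.6 FPKM in the injected hemisphere. Cd63, a tetraspanin of late endosomes, differed by 0.25, 0.13, 0.49 and 1.02 and the lysosomal protease gene Ctsz by 0.09, 0.22, 0.24 and 0.43. All pairs had one sign for these 4 genes, and AD was the highest in each. Spp1 and Ifi30 were higher on the injected side of all 4 vehicle mice too, with means of 0.51 and 0.52. Cd63 and Ctsz were higher in 3 and 2 of the 4 vehicle mice, with means of 0.18 and 0.075.

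Resting microglia genes had both signs. P2ry12, the ADP receptor of surveying microglia, measured 23.6, 24.1, 30.4 and 27.1 FPKM contralaterally and 20.8, 19.7, 28.1 and 25.3 FPKM in the injected hemisphere, lower on the injected side of all 4 mice with a mean difference of -0.17 (SE 0.0710). The 18 homeostatic microglia genes had 13 above and 5 below 0 and a median of 0.09, which was 0.016 without O and 0.053 without AD. Olfml3, a secreted matrix protein, and Fcrls, a scavenger receptor, had smaller p-values than P2ry12 and differed by 0.23, -0.03, 0.26 and 0.55 and by 0.17, -0.01, 0.31 and 0.43, higher on the injected side of K, O and AD. Lysosome genes, which share Ctsb, Ctsd, Ctsl, Ctsz, Cd63 and Cd68 with the disease-associated list, had 22 of 29 above 0 and 9 higher in all pairs, beside 7.35% of all tested genes. Their median was 0.101 (0.051 without O), and Ctsc, cathepsin C, differed by 0.18, 0.16, 0.34 and 0.57.

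Complement genes, several of which microglia make, were also mostly above 0. Of 20 genes 15 were tested, 13 were above 0 and 6 higher in all 4 pairs, beside 7.35% of all tested genes higher in all 4. The median was 0.28, with medians by mouse of 0.19, 0.04, 0.34 and 0.53. The vehicle median was 0.12, with single vehicle mice from -0.03 to 0.31. The 3 chains of C1q, which starts the classical cascade and tags synapses, had nearly the same pattern. C1qb measured 90.0, 113, 149 and 159 FPKM in the contralateral hemispheres of K, N, O and AD and 106, 118, 204 and 302 FPKM in the injected ones, and C1qa and C1qc differed by 0.26, 0.05, 0.47 and 0.80 and by 0.29, 0.00, 0.42 and 0.98. N was near 0 in all 3, and AD highest. C5ar1, the receptor of the anaphylatoxin C5a, differed by 0.33, 0.20, 0.55 and 0.89, and Fcgr1, the high-affinity IgG receptor, by 0.40, 0.09, 0.17 and 0.86. C5ar1 was higher on the injected side of all 4 vehicle mice too. The summed microglia markers (P2ry12, Tmem119 and Cx3cr1) were 62.4, 69.7, 85.9 and 83.1 FPKM contralaterally and 64.9, 60.9, 93.6 and 86.7 FPKM on the injected side, higher there in K, O and AD.

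Inflammatory mediators were mixed. Of the 28 tested of 40 cytokine and chemokine genes 21 were above 0 and 7 higher in all 4 pairs, with medians by mouse of 0.03, 0.04, 0.11 and 0.41, and without AD 16 of 28 were above 0. The list median was 0.13 and the vehicle median 0.12, with single vehicle mice from 0.05 to 0.16. Ccl5, a T cell attractant, measured 0.344, 0.424, 0.140 and 1.44 FPKM contralaterally and 0.397, 0.835, 1.31 and 3.13 FPKM in the injected hemisphere, on 2 to 49 fragments per library. Ccl12, a monocyte attractant, differed by 0.33, 0.23, 0.54 and 2.09, and Tnfrsf1a, the TNF receptor, by 0.33, 0.12, 0.32 and 0.86. Interferon and antigen presentation genes had 29 of 30 above 0, but this count rested on AD, whose median was 0.92 beside 0.01, 0.07 and -0.06, and without AD 15 of 30 were above 0. Psmb9, a subunit of the immunoproteasome, differed by 0.09, 0.19, 0.24 and 1.24. The AD median of the list was 0.72 with the length trend removed. Medians of the interferon list ranged from -0.14 to 0.29 in the vehicle mice and from -0.71 to 0.96 in the R55 mice.

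**Figure D4:**
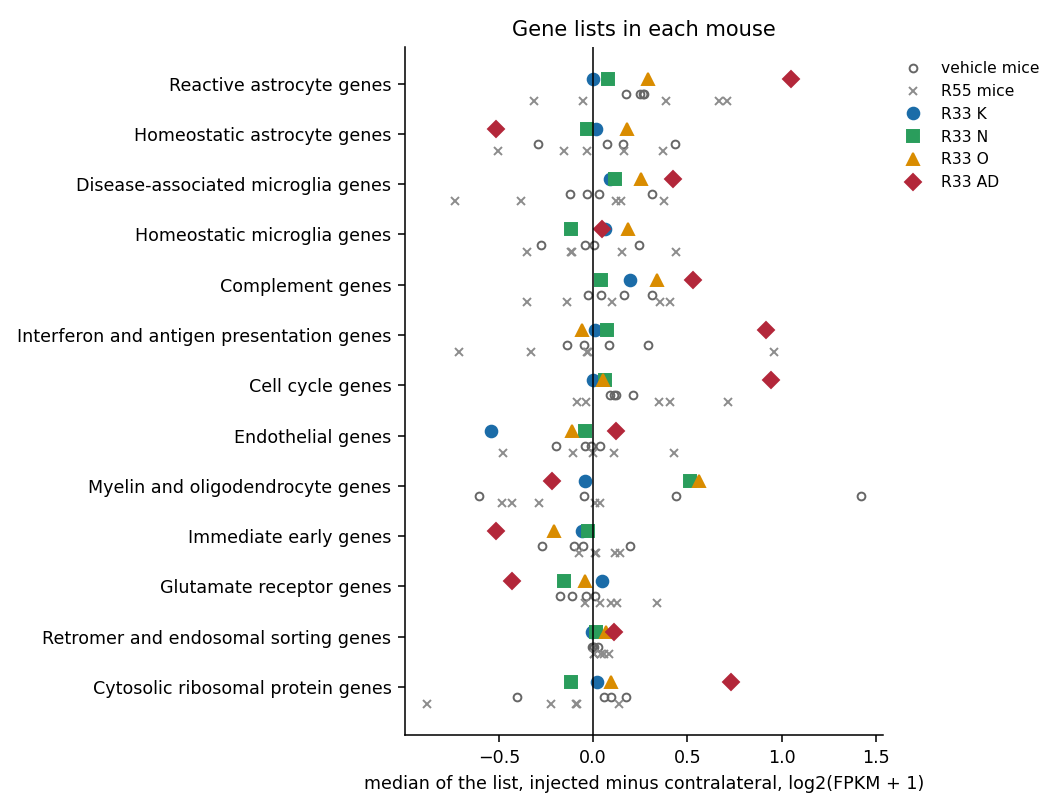
Median difference between hemispheres (log2(FPKM + 1) scale) of 13 gene lists in each R33 mouse (coloured symbols), with the 4 vehicle mice (open circles) and 5 R55 mice (crosses) below. Among the R33 mice, AD lies farthest from 0 for reactive astrocyte (1.05), interferon (0.92) and cell cycle genes (0.94), and K for endothelial genes (-0.54).

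Blood-borne cells left few fragments. Of 32 leukocyte genes 7 passed the filter, 6 above 0. Summed monocyte and macrophage markers (Ccr2, Ly6c2, Mrc1 and Cd163) were 0.534, 0.466, 0.579 and 1.36 FPKM contralaterally and 0.581, 0.769, 0.664 and 3.77 FPKM on the injected side. Ccr2, the receptor that brings monocytes to a wound, had 10, 8, 7 and 7 fragments contralaterally and 5, 5, 10 and 114 on the injected side. Only the injected block of AD thus held more than 10 Ccr2 fragments. S100a8, a neutrophil alarmin, measured 0.776, 1.86, 2.75 and 1.39 FPKM contralaterally and 0.806, 2.11, 2.65 and 6.32 FPKM in the injected hemisphere. Mmp12, the macrophage elastase, had 4, 16, 9 and 5 fragments and 6, 11, 14 and 50, and Cdca5, a mitotic cohesin factor, 6, 2, 2 and 5 and 5, 8, 2 and 29, both under the filter. The globin genes Hba-a1, Hba-a2, Hbb-bs and Hbb-bt are listed at 0 in all 8 libraries. The reason was not tested, and these values are not read as a lack of blood. Alas2, the heme synthesis enzyme of red cells, measured 1.38, 1.69, 1.48 and 3.08 FPKM contralaterally and 1.40, 2.02, 2.30 and 8.16 FPKM in the injected hemisphere.

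Endothelial genes had more members below 0 than above. Of 28 genes 26 were tested, 21 were below 0 and 6 lower in all 4 pairs, beside 5.7% of all tested genes lower in all 4. The list median was -0.13, with medians by mouse of -0.54, -0.04, -0.11 and 0.12. Flt1, a VEGF receptor, measured 9.33, 9.43, 10.5 and 2.41 FPKM in the contralateral hemispheres of K, N, O and AD and 4.58, 8.03, 9.26 and 1.72 FPKM in the injected ones, and Slco1a4, an anion transporter of the blood-brain barrier, 14.4, 15.2, 19.1 and 5.48 FPKM contralaterally and 8.26, 13.7, 15.9 and 4.67 FPKM in the injected hemisphere. Podxl, podocalyxin, differed by -0.69, -0.20, -0.11 and -0.38, Abcb1a, the drug efflux pump P-glycoprotein, by -0.86, -0.16, -0.18 and -0.17, and the pericyte gene Rgs5 by -0.93, -0.34, -0.42 and -0.22. K had the largest difference in each, and both hemispheres of AD had the lowest levels of Flt1, Slco1a4 and Abcb1a. Summed endothelial markers (Cldn5, Pecam1, Flt1 and Slco1a4) were 64.8, 64.8, 73.5 and 26.2 FPKM contralaterally and 40.4, 61.8, 65.3 and 32.6 FPKM on the injected side. The median was -0.22 without AD and -0.024 without K, and the vehicle mice ranged from -0.20 to 0.04.

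Matrix and wound genes were again led by AD. Col1a1 and Col1a2, the chains of type I collagen, differed by 0.32, 0.10, 0.50 and 0.99 and by 0.04, 0.43, 0.34 and 0.81, higher on the injected side of every mouse, while Lama4, a laminin of vessel walls, differed by -0.25 (SE 0.0848). The 31 tested of 38 mural, fibroblast and matrix genes had 20 above and 11 below 0, with medians by mouse of -0.07, 0.02, 0.07 and 0.53. Without AD 13 of 31 were above 0, and the list median went from 0.09 to -0.05. Summed markers of meningeal fibroblasts (Dcn, Slc6a13, Col1a1 and Col1a2) were 7.98, 13.4, 9.13 and 18.1 FPKM contralaterally and 8.77, 8.86, 13.9 and 51.1 FPKM on the injected side. The sum contains both collagen genes, so it is not a measure separate from them, and the part of fibroblasts in the collagen values was not tested. Hmox1, heme oxygenase 1, which breaks down heme after bleeding, measured 4.69, 3.98, 4.43 and 4.86 FPKM in the contralateral hemispheres of K, N, O and AD and 5.55, 4.92, 7.07 and 64.4 FPKM in the injected ones. The injected value of AD was far above any other, and the other 3 differences were 0.20, 0.25 and 0.57. Mt1 and Mt2, the metallothioneins, differed by 0.22, 0.21, 0.48 and 0.85 and by 0.12, 0.05, 0.57 and 0.84. All 10 tested cell cycle genes were above 0, but 6 of 10 without AD, with medians by mouse of 0.00, 0.06, 0.05 and 0.94. Mcm2, a subunit of the replicative helicase, measured 1.63, 1.24, 1.80 and 1.79 FPKM contralaterally and 1.72, 1.52, 2.54 and 4.46 FPKM in the injected hemisphere. Hmox1, Mt1, Mt2 and Mcm2 were higher on the injected side of all 4 vehicle mice too, with means of 0.665, 0.23, 0.28 and 0.27. Col1a1 and Col1a2 were higher in 3 of the 4 vehicle mice. Differences of Hmox1 ran from 0.27 to 1.03 in the vehicle mice and from -0.25 to 2.18 in the R55 mice.

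**Figure D5:**
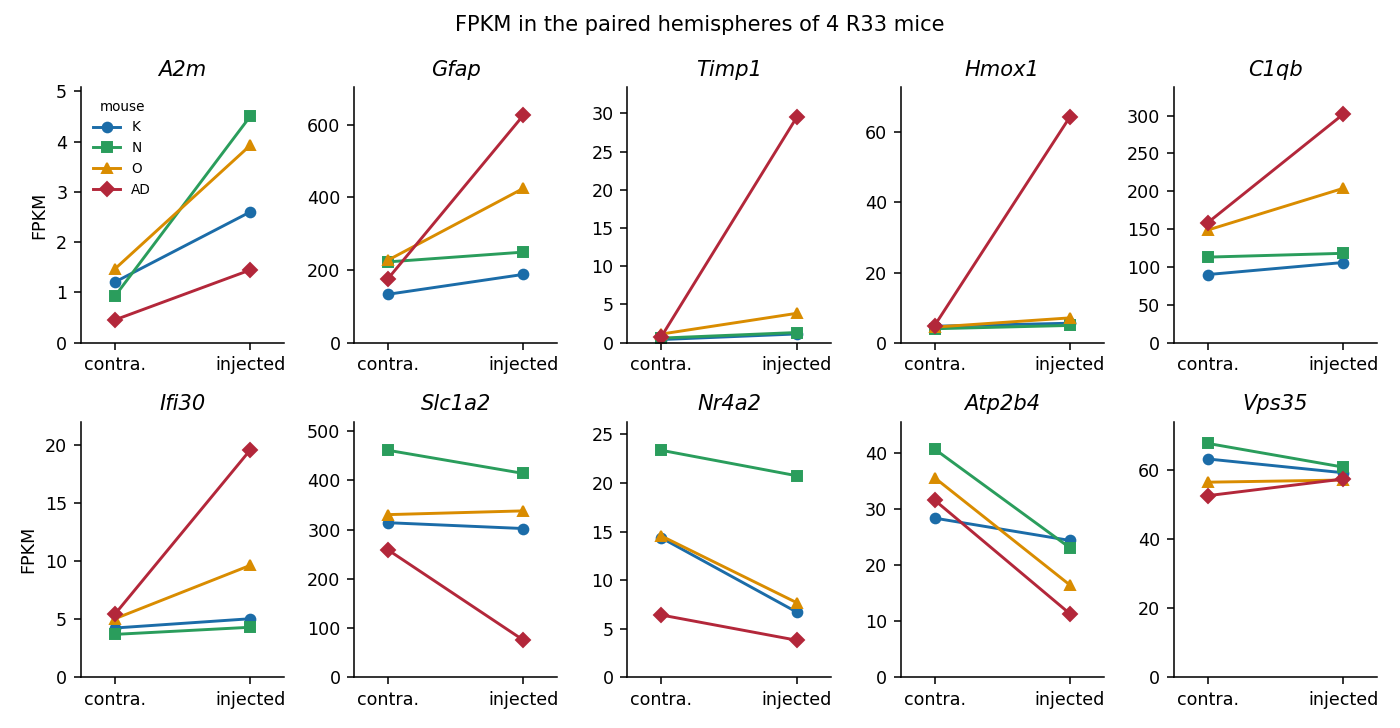
FPKM of 10 genes in the contralateral and injected block of the 4 R33 mice, 1 line per mouse, linear axes from 0. A2m is higher and Atp2b4 and Nr4a2 are lower on the injected side of all 4 mice, Timp1, Hmox1 and Slc1a2 differ most in AD, and Vps35 goes both ways.

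Immediate early genes, which neurons switch on within minutes of activity, were mostly lower in the injected hemisphere. Of 30 genes 29 were tested, 24 were below 0, 7 were lower in all 4 pairs (Nr4a2, Npas4, Btg2, Egr2, Dusp6, Egr4 and Per1) and Gadd45b alone was higher in all 4. Over all 12976 tested genes 5817 were below 0, and 5.7% were lower in all 4 pairs. The median was -0.25, by mouse -0.06, -0.03, -0.21 and -0.52, and -0.10 without AD. Many of these genes are driven by the activity-dependent factor CREB through the cyclic AMP response element. The 250 bases before the start of 3 of them with a single annotated start are shown because they hold the core of that element, TGACG or its reverse complement CGTCA, in capitals (RefSeq, GRCm38.p6, each on the minus strand, at chr2:57124004-57124253, chr19:4989972-4990221 and chr1:134079156-134079405).
Nr4a2: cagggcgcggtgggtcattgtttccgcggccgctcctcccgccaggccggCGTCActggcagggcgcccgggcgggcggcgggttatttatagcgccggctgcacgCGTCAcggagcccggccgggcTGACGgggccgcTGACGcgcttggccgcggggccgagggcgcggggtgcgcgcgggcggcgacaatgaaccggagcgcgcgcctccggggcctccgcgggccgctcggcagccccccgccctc
Npas4: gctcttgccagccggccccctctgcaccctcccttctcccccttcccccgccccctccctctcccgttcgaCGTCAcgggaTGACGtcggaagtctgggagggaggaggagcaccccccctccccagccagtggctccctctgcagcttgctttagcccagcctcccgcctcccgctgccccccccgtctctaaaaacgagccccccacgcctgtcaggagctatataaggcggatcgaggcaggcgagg
Btg2: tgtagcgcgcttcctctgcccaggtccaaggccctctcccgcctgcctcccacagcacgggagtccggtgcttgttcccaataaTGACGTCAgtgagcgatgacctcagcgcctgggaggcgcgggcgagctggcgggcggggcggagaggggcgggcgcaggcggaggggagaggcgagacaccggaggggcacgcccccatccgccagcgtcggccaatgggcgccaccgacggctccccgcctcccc
Both strands were searched. Btg2 holds the full palindrome TGACGTCA, which 1.55% of 32851 windows of this length hold, while 17.8% hold a core. Counted by gene, 19.8% of all genes with a window have a core in at least 1, as do 6 of the 7 genes lower in all pairs and 12 of the other 18 members of the list with a window. Egr2 has 5 windows and Per1 has 2. The match is a description of these letters and not of a bound site.

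Nr4a2, an orphan nuclear receptor that also marks deep cortical neurons, measured 14.4, 23.4, 14.6 and 6.41 FPKM in the contralateral hemispheres of K, N, O and AD and 6.71, 20.7, 7.68 and 3.81 FPKM in the injected ones, with differences of -0.99, -0.16, -0.84 and -0.62. Npas4, a factor that answers to calcium entry in neurons, measured 3.64, 2.12, 5.48 and 11.5 FPKM contralaterally and 3.07, 1.46, 2.48 and 5.10 FPKM in the injected hemisphere and differed by -0.61 (SE 0.159). Btg2, an antiproliferative gene, measured 5.58, 3.32, 4.91 and 11.2 FPKM contralaterally and 4.66, 2.57, 3.55 and 5.84 FPKM in the injected hemisphere, and Egr2 differed by -0.43, -0.27, -0.43 and -1.22. The contralateral block of AD had the highest Npas4, Btg2 and Egr2 of the 8 libraries. Fos and Arc were not lower in all pairs, with differences of -0.53, 0.14, -0.08 and -1.04 and of -0.09, 0.10, -0.38 and -1.08, where N was above 0 in both. The vehicle mice ranged from -0.27 to 0.20 for the list median and the R55 mice from -0.08 to 0.14. Egr2 was lower on the injected side of every vehicle mouse too (-0.59 to -0.27, mean -0.415). Npas4, Btg2 and Nr4a2 were each higher in 1 of the 4 vehicle mice, with means of -0.41, -0.12 and 0.06.

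Glutamate receptor genes were lower in the mean of the 4 pairs for 25 of 30 genes, with a median of -0.15, yet the medians by mouse were 0.05, -0.15, -0.04 and -0.43. Without AD 11 of 30 were above 0 and the median was -0.04. Lower in all 4 pairs were 3 AMPA receptor subunits and the metabotropic receptor Grm7. Gria3 measured 48.6, 51.4, 49.9 and 38.4 FPKM in the contralateral hemispheres of K, N, O and AD and 45.8, 44.3, 32.98 and 25.9 FPKM in the injected ones and differed by -0.36 (SE 0.108), and Gria2 and Gria4 differed by -0.02, -0.29, -0.07 and -0.54 and by -0.20, -0.05, -0.10 and -0.43. Gria1, the remaining AMPA subunit, differed by 0.66, -0.73, 1.14 and -0.43, and Grin1, the obligatory NMDA subunit, by 0.15, 0.15, 0.10 and -0.65. The genes of the list are long (median 5820.5 bases against 3149 for all tested genes), and with the length trend removed the list median was -0.14.

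Synaptic vesicle genes had 19 of 27 below 0 and a median of -0.084, which was -0.027 without O, with medians by mouse of -0.05, 0.05, -0.25 and -0.13. Syt4, a synaptotagmin of dense-core vesicles, measured 65.5, 59.5, 57.4 and 58.7 FPKM contralaterally and 56.3, 50.01, 47.3 and 42.8 FPKM in the injected hemisphere, with a narrow range of differences (-0.21, -0.25, -0.27 and -0.45), and all 4 injected values were below the 4 contralateral ones. Sv2b, a vesicle glycoprotein, differed by -0.10, -0.04, -0.82 and -0.62, and Vamp2, the vesicle SNARE, by -0.03, -0.17, -0.25 and -0.10. Vamp1, its relative in fast-firing cells, went the other way in N, O and AD, by -0.14, 0.85, 0.55 and 0.33. Interneuron genes had 12 above and 12 below 0 in the mean, with medians by mouse of -0.08, -0.17, -0.18 and -0.07. The list median was 0.004, and it was -0.072 with the length trend removed and -0.044 without AD. Of the 24 tested, 4 were lower in all pairs and 0 higher in all. Vip, the peptide of a superficial interneuron class, measured 31.0, 42.4, 33.1 and 37.6 FPKM contralaterally and 22.5, 23.8, 16.4 and 34.4 FPKM in the injected hemisphere. It was lower in all pairs with a mean difference of -0.59 (SE 0.145). Of 29 tested cortical excitatory neuron genes 20 were below 0. Fezf2, the selector gene of layer 5 projection neurons, differed by -0.15, -0.74, -0.23 and -0.30, and Rasgrf2, a superficial layer gene, by -0.28, -0.12, -0.95 and -0.49. Summed hippocampal, striatal and choroid plexus markers differed between the same blocks, and their part in these values was not tested.

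Myelin genes differed by mouse. Of 24 genes 20 were above 0, with medians by mouse of -0.04, 0.51, 0.56 and -0.22, so N and O were high and K and AD near or below 0. Mbp, myelin basic protein, measured 501, 462, 635 and 532 FPKM contralaterally and 512, 709, 945.5 and 610.3 FPKM in the injected hemisphere, and Olig1, the lineage factor, differed by 0.17, 0.16, 0.54 and 0.19. The vehicle mice spanned -0.60 to 1.42 for the same median, a wider range than the 4 R33 mice. All 36 tested ribosomal protein genes of the cytosol were above 0 in the mean, but their medians were 0.02, -0.12, 0.09 and 0.73, and without AD 14 of 36 were above 0. Rpl18, for one, measured 84.6, 100.2, 97.8 and 122 FPKM contralaterally and 90.0, 98.9, 105 and 203 FPKM in the injected hemisphere. These genes are short, and the AD median was 0.27 with the length trend removed.

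To ask what R33 added to the injection, the hemisphere difference of the R33 mice was set against that of the vehicle mice in one limma fit over the differences of 13 mice. No gene was called (0%, smallest adjusted p = 0.9999), and 124 genes had an unadjusted p under 0.05 (0.956%), which became 460 without N and 234 without the vehicle mouse L. The median SE of that contrast was 0.135. Higher in all 4 pairs of both treatments were 155 genes, and lower in both 72, while 2 were higher after R33 and lower in every vehicle mouse and 4 the reverse. Contrasts are named for the smallest p, at an adjusted p of 0.9999 each. Scarna2 had the smallest, with a contrast of 1.93 (SE 0.455), on the few fragments noted above. Otx2, a transcription factor of the choroid plexus, whose other markers also differed between these blocks, had a contrast of 1.32 (SE 0.395) and Gstm2, a glutathione transferase, 0.56 (SE 0.164). Vat1l, Ccnd3, a cyclin of the G1 phase, and Arl11 had 0.57, 0.37 and 0.46. Below 0 were Cntn6, an adhesion molecule of the contactin family, at -0.34 (SE 0.0881), Met, the receptor of hepatocyte growth factor, at -0.47 (SE 0.144), Ccn1 at -0.49, Gfpt2 at -0.38, Brinp3 at -0.45 and the small nucleolar RNA Snora61 at -0.91. Snora61 rests on 5 to 18 fragments per R33 library and overlaps Snhg12 on the same strand.

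Met measured 1.44, 2.84, 2.06 and 1.64 FPKM contralaterally and 1.16, 1.28, 0.938 and 0.939 FPKM in the injected hemisphere in the R33 mice, lower on the injected side of all 4, and the 4 vehicle mice had differences between -0.20 and 0.12. For A2m, Cd14 and Atp2b4 the R33 minus vehicle contrast was 0.48 (95% interval -0.09 to 1.06), 0.23 (-0.36 to 0.81) and -0.46 (-0.94 to 0.01). A2m and Cd14 were higher on the injected side of all 4 vehicle mice too, and Atp2b4 lower. For Vps35 it was 0.02 (-0.20 to 0.23).

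R33 and R55 were compared in the same way, as a single pair of compounds at 10 mM and 24 h. No gene was called (0%, smallest adjusted p = 0.330), but 1514 genes had an unadjusted p under 0.05 (11.7%), 828 of them higher after R33 (6.38%). That count was 839 without AD and 886 without the R55 mouse Q, whose hemisphere difference followed gene length the other way (Spearman correlation 0.71 across genes). With the length trend removed it was 1128. Atp2b4 had the smallest p, with a contrast of -1.19 (SE 0.210) and an adjusted p of 0.330, lower on the injected side of all 4 R33 mice and higher in all 5 R55 mice (0.01 to 0.49). It was called without K (adjusted p = 0.0410), the R33 mouse with the smallest difference, and in no other fit. The others named had adjusted p-values of 0.330 to 0.377. Kcnf1 had a contrast of -0.73 (SE 0.142), Cntn6 -0.43 (SE 0.0836), Met -0.66 (SE 0.137), Bmp3, a growth factor of the BMP family, -0.81 (SE 0.159) and Acsl4, a long-chain acyl-CoA synthetase, -0.43 (SE 0.0851).

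Contrasts above 0 were led by Hacl1, a peroxisomal lyase, at 0.50 (SE 0.0948), Bmp4 at 0.69 (SE 0.135), Fkbp7, a chaperone of the endoplasmic reticulum, at 0.48 (SE 0.0961), Gstm2 at 0.73 (SE 0.155), Galm, a sugar mutarotase, at 0.57 (SE 0.126) and Ddit4, an inhibitor of mTORC1, at 0.43 (SE 0.0956). Over all genes, 71 were higher in every R33 mouse and lower in every R55 mouse, and 93 were the reverse, whereas 13 and 23 had the same sign in all mice of both. For Vps35 the contrast was -0.12 (SE 0.0950) with a 95% interval of -0.32 to 0.09. By list, the R55 mice had medians from -0.73 to 0.38 for disease-associated microglia genes and from -0.04 to 0.34 for glutamate receptor genes, beside 0.09, 0.12, 0.25 and 0.43 and 0.05, -0.15, -0.04 and -0.43 in the R33 mice. The -0.73 and the 0.34 were both from Q, and the other R55 mice ran from -0.38 to 0.38 and from -0.04 to 0.13. The first list holds short genes and the second long ones, and Q and AD had length trends of opposite sign. The part of gene length in these medians was not tested.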

How the data were processed

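RNA of cortical blocks was extracted with a column kit, made into stranded mRNA libraries and sequenced on an Illumina instrument. Per the study's methods, reads were aligned with HISAT2 to GRCm39, and the authors deposited 1 table of FPKM values. The counter and whether strand was used are not given in the sources used here. Of 32 library columns 27 matched a sample and 5 were not used, 32 leftover header lines were dropped, and symbols were placed with GENCODE M39. Gene lengths were solved from the FPKM themselves, as the smallest whole length giving whole fragments in every library used. FPKM times this length gave whole fragments in 100% of values (within 0.01), which supplied the totals per library. Because the lengths were fitted to the same values, that share is not a separate check of them. Since FPKM are not counts, differences were tested on log2(FPKM + 1) with limma 3.58.1 in R 4.3.3, with mouse as a block and an intensity trend, for genes averaging 1 FPKM or more, and adjusted over 12976 genes. The labels give the mouse of each library, so pairs are animals. Deviations from the group means correlated between hemispheres of a mouse at 0.535, 0.072, 0.098 and 0.644 in K, N, O and AD, against a mean of -0.104 between different mice. Deviations from a group's own mean sum to 0, which ties the second value to the first, so it is not an independent comparison. Differences of 13 mice entered the contrasts with vehicle and R55. The script was tested on simulated data.

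Genes named were up to 12 per direction with the smallest p and one sign in all pairs, the members with the smallest p of each list (up to 4), cell type markers, up to 6 per direction for each contrast, Vps35, App and the genes the study names. Outside this rule and chosen after their values were seen are, among others, Gfap, Vim, Timp1, Lcn2, Stat3, Ccl12, Ccr2, Fos, Arc, Dusp6, Egr4, Per1, Gadd45b, Sort1, Sorl1, the other core subunits of the retromer, Gria1 and Grin1. The members and lists were chosen with earlier results of these data known. Each p measures the spread between these mice. Alternatives were another pseudocount and filter, size factors, the length trend removed, voom on recovered fragments, no block, AE included and each mouse left out. The 5 unmatched columns were not analysed here, and a few genes are not reported here and were left out of the marker sums and the plot of leading genes.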

Additional observations from a re-analysis of the deposited data

Results flagged for a closer look

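Some values stood far from the other mice of their group, by a gap to the nearest mouse above Dixon's 95% critical value for 4 samples when divided by the group's range. This met 16 of 187 groups tested, where chance alone gives about 1 in 20. Most were hemisphere differences or list medians of AD: Hmox1 at 3.48, Slc1a2 at -1.77, S100a8 at 1.61, Psmb9 at 1.24, Egr2 at -1.22, Cxcl16, a chemokine, at 1.07, Rpl18 at 0.72, Hacl1 at 0.32, and the medians of interferon and cell cycle genes at 0.92 and 0.94.

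In K the difference of Abcb1a was -0.86 and that of Acsl4 -0.051, in O that of Olig1 was 0.54, and in N the median of striatal neuron genes was 1.57. The sum of FPKM was 425001 in the injected library of AD, and the 10 most abundant genes took 4.06% of fragments in the contralateral library of O.

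For 13 named genes every R33 mouse went one way between hemispheres and every R55 mouse the other, beside 71 and 93 of the 12976 tested genes. Cox6b2, Nqo1, Atp2b4, Kcnf1 and Cntnap3 had been chosen for one sign in all R33 pairs, and the others for a small p in this contrast, so the count is a description. The R33 minus R55 contrast was above 0 for Cox6b2 (1.05), Nqo1 (0.74), Bmp4 (0.69), Galm (0.57), Hacl1 (0.50), Fkbp7 (0.48) and Ddit4 (0.43). It was below 0 for Atp2b4 (-1.19), Bmp3 (-0.81), Kcnf1 (-0.73), Cntnap3 (-0.62), Cntn6 (-0.43) and Acsl4 (-0.43). The limma test of these differences gave no adjusted p below 0.330, so none passed.

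AE, whose injected library has no partner here, held 9 of the 12 named higher genes above all 4 R33 contralateral libraries, beside 19.2% of all tested genes. They were Scarna2 (3.22 FPKM), A2m (2.33), Lrrc10b (13.9), Cd14 (7.29), Rom1 (5.23), Ppp1r14a (40.0), Nqo1 (4.21), Sebox (5.39) and Rhog (39.3). Of the 12 lower genes 8 were below all 4, beside 32% of tested genes. The genes were chosen on the contralateral values they are read against, so this is a description.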

How the results depend on the processing

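The count of called genes was 0 for the hemisphere comparison under all alternatives run, and the number at an unadjusted p under 0.05 moved from 546 to 974 with no filter on low values (22013 genes). With each mouse left out it ran from 388 (without O) to 638 (without AD). For the contrast with vehicle (124 genes) it was 444 with no filter, 225 at a minimum of 0.1 FPKM with a pseudocount of 0.1, and from 89 (without J) to 460 (without N, 234 without L) with a mouse left out, and 0 genes were called. For the contrast with R55 (1514 genes) it ran from 839 (without AD, 886 without Q) to 1962 (without R), with 0 or 1 gene called. The 1 gene was Atp2b4, without K. The causes were not tested.

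Without the replicate block, which treats the hemispheres of a mouse as unpaired, 207, 49 and 575 genes were left at that level in the 3 comparisons, and it changed no call.

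Of the named genes' values 2305 kept their direction and side of the threshold, 1 passed it and 4 reversed. Psenen was -0.001 with the length trend removed. With a mouse left out, Aplp2 ran from -0.26 to 0.04 and App from -0.238 to 0.056, both above 0 only without AD, and Vps35 from -0.076 to 0.016, above 0 only without N. Of the list medians 200 moved by less than the spread between mice and 3 by more. Depth limits Scarna2, Snora61, Ccl5, Ccr2, Mmp12 and Cdca5, which rest on few fragments in some or all libraries.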

Other observations

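Genes of deeper structures differed in sign between mice. Striatal neuron genes had 12 of 14 above 0 and a median of 0.334, with medians of -0.26, 1.57, -0.29 and 0.01 in K, N, O and AD, and the median was -0.18 without N. The hippocampal neuron genes had 12 of 13 above 0 and a median of 0.313, with medians of 0.55, -0.32, 1.21 and -0.21, and the median was -0.042 without O. All 9 tested choroid plexus genes were above 0 in the mean, with a median of 0.69 that was -0.017 without N, while the mice had medians of 0.74, 3.05, -1.30 and 0.38. N and O had opposite signs in all 3 lists.

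Lists of cell stress and metabolism had medians near 0. Metallothionein and glucocorticoid-responsive genes had 13 of 18 above 0 and a median of 0.074, chaperone and unfolded protein response genes 16 of 26 above 0 and a median of 0.017, cholesterol genes 10 of 24 above 0 and a median of -0.019 and calcium channel and store genes 8 of 21 above 0 and a median of -0.039. Without AD 15 of 21 calcium genes were above 0 with a median of 0.030, and 14 of 24 cholesterol genes with a median of 0.040, so both medians changed sign. The chaperone median ran from 0.007 to 0.027 with a mouse left out and was -0.013 with the length trend removed. By mouse the chaperone medians were -0.05, 0.02, 0.03 and 0.06 and those of the calcium genes 0.05, 0.05, -0.07 and -0.19. Esyt1, an extended synaptotagmin that tethers the endoplasmic reticulum to the plasma membrane, measured 5.47, 3.83, 4.69 and 4.33 FPKM contralaterally and 5.03, 5.52, 5.54 and 6.92 FPKM in the injected hemisphere and differed by 0.28 (SE 0.121), with 3 of 4 pairs higher.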
